A study of Homo sapiens with 6 samples.

Results

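The response to LARP7 depletion was compared between HCC1937 and MDA-MB-231, which are established breast cancer cell lines, over the 6911 table entries that both lines expressed, out of 63568 entries in the human tables. An entry was included at 5 RPKM or more (reads per kilobase of gene, scaled to mapped reads) in the siNC control library of each line. KIAA0368, at 5.001 RPKM in the lower of its controls, was just inside this limit and FCGRT, at 4.999 RPKM, just outside. Because 355 symbols were listed more than once, the 6911 entries stand for 6160 symbols, of which 5195 are protein-coding.

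RNA abundance was measured by sequencing in HCC1937 cells given an siRNA against LARP7 (siLARP7), HCC1937 cells given the control siRNA (siNC), and MDA-MB-231 cells given siLARP7 or siNC, each at 10 ng/ml. HCC1937 is known for a mutant BRCA1 gene and MDA-MB-231 for a mesenchymal, claudin-low character, and the labels name no clone, time point or siRNA sequence. The series also holds LARP7-/- and wild-type mouse embryonic fibroblasts (MEFs), which are used below as a further readout. With 1 library in each of the 4 human groups, no difference has a replicate check, and no test was made. Fewer cells of a kind and less RNA per cell cannot be told apart in such bulk libraries.

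LARP7 is an RNA-binding protein that coats the 3′ end of the noncoding RNA 7SK and holds it in a particle with the capping enzyme MEPCE and the HEXIM proteins. That particle keeps the kinase P-TEFb, a pair of CDK9 and a cyclin T, away from paused RNA polymerase II, and release of P-TEFb lets the polymerase elongate. LARP7 also binds U6 small nuclear RNA and serves its modification. The series title names LARP7 as a target of the ubiquitin ligase BRCA1, whose gene is mutant in HCC1937 and not known to be so in MDA-MB-231.

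For each gene the log2 ratio of siLARP7 over siNC was taken on RPKM + 1 and centred on its median over the 6911 entries, which was -0.092 in HCC1937 and -0.010 in MDA-MB-231. This value is called the response, and the response in HCC1937 minus the response in MDA-MB-231 is called the response difference, so that a positive difference means a higher response in HCC1937. The pseudocount of 1 understates the change of low genes. A response was counted from 0.5 in size (1.41-fold) and a response difference from 1 (2-fold). Ranges given with a response difference are 95% counting intervals from approximate read numbers, and they hold no variation between cultures.

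The libraries were alike in depth, at 49.3 to 53.3 M reads. LARP7 RNA stood at 2.89 RPKM with siLARP7 and 5.62 RPKM with siNC in HCC1937, and 4.51 RPKM with siLARP7 and 8.65 RPKM with siNC in MDA-MB-231, which is 51.4% of the control in HCC1937 and 52.2% in MDA-MB-231. Its response was -0.68 in HCC1937 and -0.80 in MDA-MB-231, with a response difference of 0.12 (-0.024 to 0.27). With the trend over GC content, length and level that is described below taken out, LARP7 had -0.17 in HCC1937, short of the limit of 0.5, and -0.59 in MDA-MB-231, a difference of 0.42. Most markers in the control libraries fit their labels. Of 11 epithelial breast markers 1 was under 1 RPKM in HCC1937 and 6 were in MDA-MB-231. Of 8 mesenchymal markers 2 were under 1 RPKM in the HCC1937 control and 0 in that of MDA-MB-231. The epithelial markers KRT19 and CLDN4 lay the other way. With siNC, KRT19 was at 4.29 RPKM in HCC1937 and 97.5 RPKM in MDA-MB-231, and CLDN4 at 29.9 and 63.9 RPKM. That CLDN4 level runs against the claudin-low character named above. Mesenchymal SPARC was also higher in the HCC1937 control (4.201 RPKM) than in that of MDA-MB-231 (1.51 RPKM). The defining markers of other cell types were absent or low, with 7 of 7 fibroblast genes and 4 of 4 endothelial genes under 1 RPKM in HCC1937 and 5 of 7 and 4 of 4 in MDA-MB-231. Of 6 leukocyte genes 4 were under 1 RPKM in every library, with CD68 and CD14 above it, and of 4 luminal genes 2 in HCC1937 and 3 in MDA-MB-231.

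The responses of the lines were only weakly correlated across entries. HCC1937 had 397 entries higher (5.74%) and 626 lower (9.06%) by the response rule, and MDA-MB-231 had 202 higher (2.92%) and 390 lower (5.64%). Entries higher in both lines numbered 26 (0.376%) and entries lower in both 44 (0.637%). The 44 are 7.03% of the entries lower in HCC1937, against 5.64% of all entries lower in MDA-MB-231. They are 11.3% of those lower in MDA-MB-231, against 9.06% of all entries lower in HCC1937. The 26 are 6.55% of the entries higher in HCC1937, against 2.92% of all entries higher in MDA-MB-231. They are 12.9% of those higher in MDA-MB-231, against 5.74% of all entries higher in HCC1937. This overlap was not tested. The response difference was at least 1 for 129 entries (1.87%) and at most -1 for 83 (1.2%), which turns to 86 and 126 when the ratios are not centred, to 154 and 152 at a pseudocount of 0.1 and to 44 and 91 on the log2 change of the authors' deposited table. Across the 6911 entries the responses had a Pearson correlation of 0.060 and a Spearman correlation of 0.090. Over the 5195 protein-coding symbols the Spearman correlation was 0.13. It turned to -0.10 with the trend over GC content, length and level removed. This is a description across genes, which are not replicates.

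**Figure D1:**
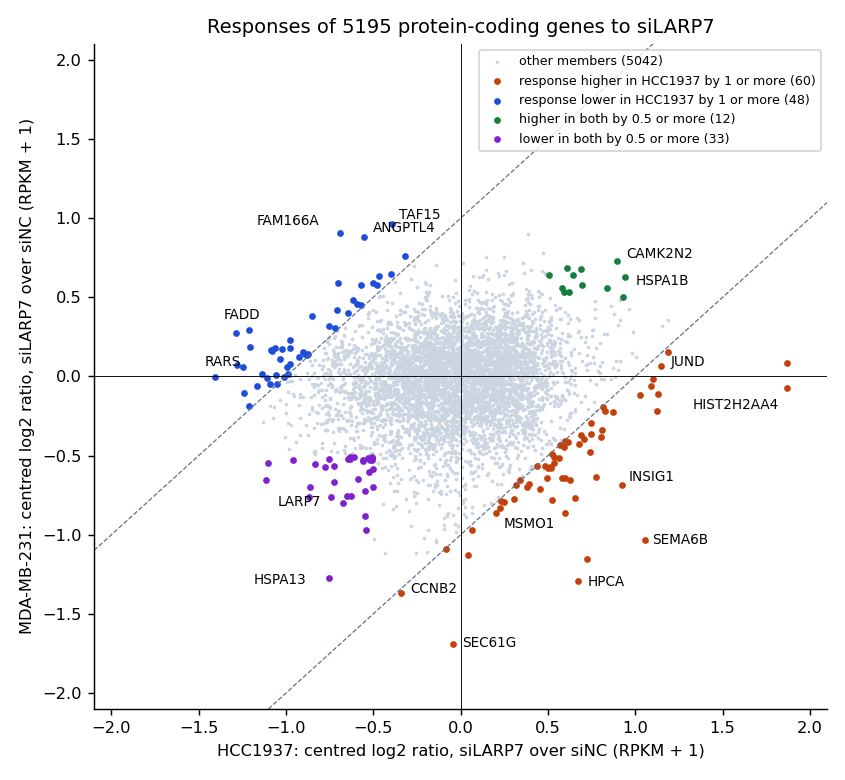
Response to siLARP7 in HCC1937 (horizontal axis) and MDA-MB-231 (vertical axis), each a centred log2 ratio on RPKM + 1, for 5195 protein-coding genes, 1 point a gene. Points beyond the dashed lines differ between the lines by 1 or more (60 to the lower right, 48 to the upper left), and the 12 green and 33 purple points moved at least 0.5 the same way in both.

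Among protein-coding symbols, 60 had a response difference of at least 1 and 48 one of at most -1. Those on the higher side came about in several ways: 17 were higher in HCC1937 and lower in MDA-MB-231, 25 moved in HCC1937 alone and 18 in MDA-MB-231 alone. On the lower side 38 of 48 were lower in HCC1937 alone, 5 moved in MDA-MB-231 alone and 5 moved in opposite directions. Here "alone" means that the other line missed a response of 0.5, not that its response was shown to be 0.

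Genes of cholesterol metabolism leaned in opposite directions with siLARP7. Responses were above 0 in HCC1937 and below 0 in MDA-MB-231 for 11 of 18 members, against 1403 of all 6160 symbols. This pathway is switched on as a unit by the membrane-bound factor SREBP2 when sterols run low, while INSIG proteins hold that factor back. Of 27 listed genes 25 were found in the tables and 18 were members. Of these, 17 had a positive response difference, against 3056 of all 6160 symbols. The median response was 0.15 in HCC1937 and -0.39 in MDA-MB-231, with a median difference of 0.53, against -0.0047 over all 6160 symbols. By the response rule 4 of 18 were higher in HCC1937, against 5.74% of all entries, and 6 of 18 lower in MDA-MB-231, against 5.64%. A difference of at least 1 was found for 5 of 18, against 1.87% of all entries. One of at most -1 was found for 0, against 1.2%.

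INSIG1, the feedback protein that retains SREBP in the endoplasmic reticulum, stood at 18.2 RPKM with siLARP7 and 9.80 RPKM with siNC in HCC1937, and 19.6 RPKM with siLARP7 and 32.3 RPKM with siNC in MDA-MB-231. With siLARP7 it was the higher library in HCC1937 and the lower one in MDA-MB-231, with responses of 0.92 in HCC1937 and -0.69 in MDA-MB-231 and a difference of 1.61 (1.51 to 1.70). MSMO1, the C4 sterol methyl oxidase, stood at 34.2 RPKM with siLARP7 and 23.8 RPKM with siNC in HCC1937, and 18.1 RPKM with siLARP7 and 33.98 RPKM with siNC in MDA-MB-231, for a difference of 1.46 (1.37 to 1.55). Both genes moved past the response limit in each line, upward in HCC1937 and downward in MDA-MB-231.

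SQLE, the squalene epoxidase, reached a difference of 1.08 mostly through MDA-MB-231, at 17.4 RPKM with siLARP7 and 14.9 RPKM with siNC in HCC1937, and 6.398 RPKM with siLARP7 and 11.7 RPKM with siNC in MDA-MB-231. HMGCS1, which makes the substrate of HMG-CoA reductase, was at 18.8 RPKM with siLARP7 and 13.3 RPKM with siNC in HCC1937, and 4.65 RPKM with siLARP7 and 6.69 RPKM with siNC in MDA-MB-231, and its difference of 1.00 (0.89 to 1.11) lies on the limit itself. FDFT1, the squalene synthase, missed the limit with a difference of 0.77, and so did DHCR7, the enzyme of a late reduction step, at 0.61. PMVK, a kinase of the mevalonate pathway, was the 1 member with a negative value (-0.21). CYP51A1 and ACAT2 had differences near 0 (0.052 and 0.01).

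**Figure D2:**
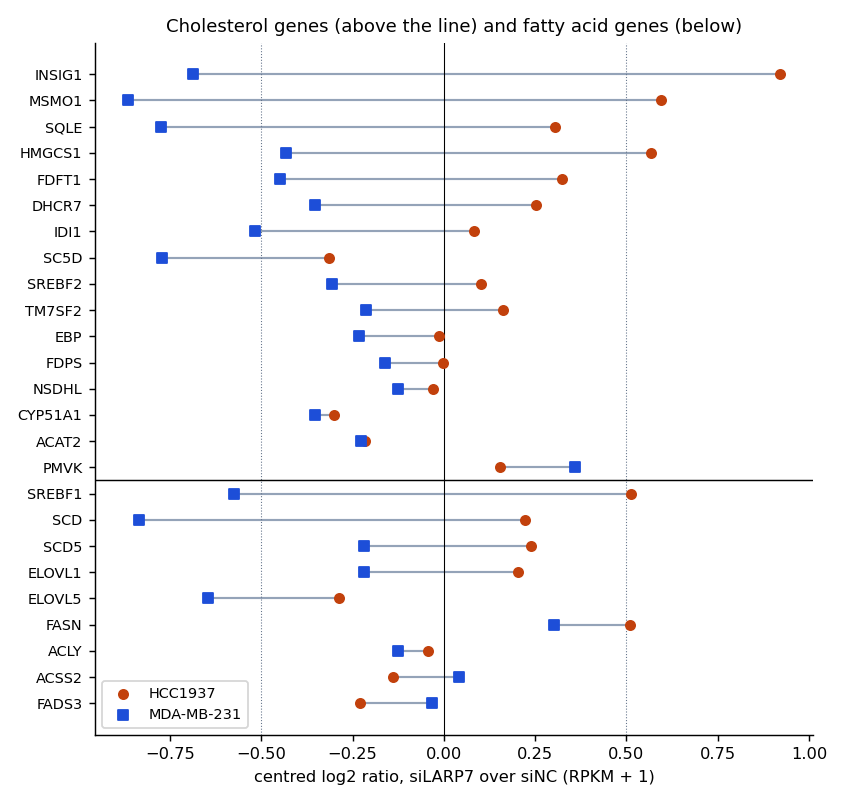
Response to siLARP7 of 16 of the 18 cholesterol genes (above the horizontal line) and 9 fatty acid genes (below it), as centred log2 ratios on RPKM + 1, with circles for HCC1937 and squares for MDA-MB-231. For most genes the circle lies to the right of the square, furthest for INSIG1 (0.92 in HCC1937 and -0.69 in MDA-MB-231), and PMVK, ACSS2 and FADS3 lie the other way.

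Promoters are shown for this list because 17 of its 18 members had a difference of the same sign. Below are the 250 bases before the start of 3 genes with a large difference and of SREBF2, which encodes SREBP2, read 5′ to 3′ from RefSeq on build GRCh38.p14. Capitals mark the letters CCAAT of the box that NF-Y binds, or their reverse complement, and in SREBF2 also TCACNCCAC, the letters of a sterol regulatory element, searched on both strands. The letters of the one kind do not overlap those of the other.
INSIG1, chr7:155297628-155297877, plus strand: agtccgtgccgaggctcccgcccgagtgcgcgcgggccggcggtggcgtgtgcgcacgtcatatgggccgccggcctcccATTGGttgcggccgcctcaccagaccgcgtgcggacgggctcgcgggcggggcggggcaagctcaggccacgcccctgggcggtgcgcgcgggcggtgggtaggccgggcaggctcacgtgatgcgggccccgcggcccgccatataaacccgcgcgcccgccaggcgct
MSMO1, chr4:165327419-165327668, plus strand: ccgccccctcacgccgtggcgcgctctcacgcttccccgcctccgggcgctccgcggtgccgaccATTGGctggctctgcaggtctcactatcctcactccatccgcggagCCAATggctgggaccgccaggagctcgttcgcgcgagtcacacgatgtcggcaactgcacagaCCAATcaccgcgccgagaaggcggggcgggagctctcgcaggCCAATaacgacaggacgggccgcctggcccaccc
HMGCS1, chr5:43313413-43313662, minus strand: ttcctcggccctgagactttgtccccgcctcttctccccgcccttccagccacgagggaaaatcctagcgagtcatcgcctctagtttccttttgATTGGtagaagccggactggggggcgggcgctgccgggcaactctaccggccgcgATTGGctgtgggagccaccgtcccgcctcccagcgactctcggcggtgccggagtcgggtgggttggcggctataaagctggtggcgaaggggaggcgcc
SREBF2, chr22:41832855-41833104, plus strand: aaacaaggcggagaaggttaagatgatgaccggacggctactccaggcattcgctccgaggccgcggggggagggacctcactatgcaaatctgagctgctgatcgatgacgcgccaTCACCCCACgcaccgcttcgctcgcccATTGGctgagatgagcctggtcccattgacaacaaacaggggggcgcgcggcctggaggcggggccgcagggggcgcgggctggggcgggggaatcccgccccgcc

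The CCAAT letters occur 4 times before MSMO1, 2 times before the listed HMGCS1 start and 1 time each before INSIG1 and SREBF2. Of the 18 cholesterol genes 13 are in the promoter table, and 11 of these hold the letters at a listed start, against 43.3% of 3951 protein-coding members in the table and 37.0% of 27305 symbols. The sterol element letters occur before SREBF2 alone among the 13, against 1.27% of those members and 1.09% of all symbols. SREBF2 itself was at 19.3 RPKM with siLARP7 and 19.1 RPKM with siNC in HCC1937, and 20.7 RPKM with siLARP7 and 26.1 RPKM with siNC in MDA-MB-231, a difference of 0.41 that missed the limit. A letter match is a description of the window and no evidence of binding, and SQLE is named without a sequence.

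Fatty acid genes followed in part. Of 9 members, 7 had a positive difference, against 3056 of all 6160 symbols, and the median was 0.36. SREBF1, the related factor that drives lipogenesis, was at 12.7 RPKM with siLARP7 and 9.20 RPKM with siNC in HCC1937, and 15.4 RPKM with siLARP7 and 23.6 RPKM with siNC in MDA-MB-231, higher in HCC1937 and lower in MDA-MB-231 (difference 1.09). SCD, the desaturase that makes monounsaturated fatty acids, was at 40.9 RPKM with siLARP7 and 37.3 RPKM with siNC in HCC1937, and 46.98 RPKM with siLARP7 and 85.1 RPKM with siNC in MDA-MB-231, where MDA-MB-231 made most of the difference of 1.06. FASN, the fatty acid synthase itself, had responses of 0.51 in HCC1937 and 0.30 in MDA-MB-231 and went the same way in the lines.

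The largest differences on the higher side lay outside these pathways. SEMA6B, a transmembrane semaphorin, was at 43.96 RPKM with siLARP7 and 22.04 RPKM with siNC in HCC1937, and 12.2 RPKM with siLARP7 and 26.2 RPKM with siNC in MDA-MB-231. It gave the largest value of any protein-coding gene, 2.09 (2.02 to 2.17), with responses of 1.06 in HCC1937 and -1.04 in MDA-MB-231. HPCA, the neuronal calcium sensor hippocalcin, was at 46.2 RPKM with siLARP7 and 30.5 RPKM with siNC in HCC1937, and 4.46 RPKM with siLARP7 and 12.5 RPKM with siNC in MDA-MB-231 (difference 1.97). RP4-734P14.4, an entry annotated as protein-coding, was at 85.8 RPKM with siLARP7 and 55.03 RPKM with siNC in HCC1937, and 9.45 RPKM with siLARP7 and 22.4 RPKM with siNC in MDA-MB-231 (difference 1.88). BAMBI, a decoy receptor that dampens TGF-β signalling, was at 24.3 RPKM with siLARP7 and 16.2 RPKM with siNC in HCC1937, and 4.68 RPKM with siLARP7 and 8.77 RPKM with siNC in MDA-MB-231 (difference 1.42). All 4 were higher with siLARP7 in HCC1937 and lower in MDA-MB-231.

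Genes of the endoplasmic reticulum translocon leaned down in both lines, and 1 of them differed past the limit. SEC61G, the small subunit of the channel through which proteins enter that organelle, was at 53.97 RPKM with siLARP7 and 59.4 RPKM with siNC in HCC1937, and 10.7 RPKM with siLARP7 and 36.9 RPKM with siNC in MDA-MB-231. The HCC1937 libraries hardly differed while the MDA-MB-231 response was -1.69, and the difference was 1.64 (1.54 to 1.75). Over the 21 members of the translocon and signal recognition list the median response was -0.31 in HCC1937 and -0.37 in MDA-MB-231, with 4 members lower by the response rule in each line, against 9.06% of all entries in HCC1937 and 5.64% in MDA-MB-231, and 0 lower in both. With the trend removed the medians were -0.19 in HCC1937 and -0.20 in MDA-MB-231. SEC61G was the 1 member past the difference limit. TRAM1, which helps chains enter the channel, had responses of -0.50 in HCC1937 and -1.03 in MDA-MB-231, and SEC62 of -0.83 in HCC1937 and -0.49 in MDA-MB-231.

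SDF2L1, a chaperone partner in the endoplasmic reticulum, was at 171 RPKM with siLARP7 and 106 RPKM with siNC in HCC1937, and 22.9 RPKM with siLARP7 and 36.5 RPKM with siNC in MDA-MB-231 (difference 1.41). It was the 1 of 23 members of the integrated stress and unfolded protein list past the limit, and the list median was 0.06 in HCC1937, -0.14 in MDA-MB-231 and 0.32 for the difference. HSPA5, the main chaperone of the organelle, was at 1589 RPKM with siLARP7 and 1203 RPKM with siNC in HCC1937, and 255 RPKM with siLARP7 and 277 RPKM with siNC in MDA-MB-231, and DDIT3, the stress factor CHOP, at 187 RPKM with siLARP7 and 108 RPKM with siNC in HCC1937, and 11.1 RPKM with siLARP7 and 11.2 RPKM with siNC in MDA-MB-231. Their differences of 0.60 and 0.89 missed the limit. SEL1L, part of the degradation machinery, was lower in both lines (-0.53 in HCC1937 and -0.52 in MDA-MB-231).

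Of the histone genes, 4 of 5 replication-dependent and 2 of 9 replacement members were higher with siLARP7 in HCC1937 by the response rule, against 5.74% of all entries. The labels do not say whether poly(A) RNA was selected, which bears on the histone values. HIST2H2AA4 was at 189.7 RPKM with siLARP7 and 54.7 RPKM with siNC in HCC1937, and 11.4 RPKM with siLARP7 and 12.1 RPKM with siNC in MDA-MB-231, and HIST2H2AA3, a near-identical copy of this H2A gene that shares its reads, at 185 RPKM with siLARP7 and 53.3 RPKM with siNC in HCC1937, and 10.3 RPKM with siLARP7 and 9.74 RPKM with siNC in MDA-MB-231, so that their separate values are uncertain. HIST3H2A, another H2A gene, was at 121 RPKM with siLARP7 and 73.8 RPKM with siNC in HCC1937, and 4.31 RPKM with siLARP7 and 5.98 RPKM with siNC in MDA-MB-231 (difference 1.18). Of 33 replication-dependent histone genes listed 5 were members, and these were above 0 in HCC1937 in 5 of 5 cases, against 2974 of all 6160 symbols. The medians were 0.82 in HCC1937, -0.07 in MDA-MB-231 and 1.18 for the difference. With the trend removed they were 0.60 in HCC1937, -0.08 in MDA-MB-231 and 0.92 for the difference. On the authors' log2 change the median difference was 0.67. As HIST2H2AA4 and HIST2H2AA3 both count, these values do not rest on 5 separate signals. Of 9 replacement histone genes all had a positive difference (median 0.31, and 0.17 with the trend removed), against 3056 of all 6160 symbols. H3F3B, which encodes histone H3.3, passed the limit with responses of 0.61 in HCC1937 and -0.41 in MDA-MB-231.

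JUND, an AP-1 subunit, was at 102 RPKM with siLARP7 and 48.6 RPKM with siNC in HCC1937, and 88.9 RPKM with siLARP7 and 85.7 RPKM with siNC in MDA-MB-231, and its difference of 1.08 came from HCC1937. The 14 immediate early and AP-1 genes were above 0 in 12 cases in HCC1937, against 2974 of all 6160 symbols. In MDA-MB-231 they were in 10, against 3031. Their median was 0.39 in HCC1937 and 0.30 in MDA-MB-231. DUSP1, a MAP kinase phosphatase, had responses of 1.15 in HCC1937 and 0.32 in MDA-MB-231, and IER5 of 0.91 in HCC1937 and 0.36 in MDA-MB-231. FOSL1, the AP-1 subunit FRA1, lay the other way at -0.20 in HCC1937 and 0.42 in MDA-MB-231. ZFP36, which destabilizes cytokine mRNA, was higher in both lines and is described with the shared genes.

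On the lower side stood genes of ribosome biogenesis, a list added after the values were seen and therefore given as a description. Of 44 members, 40 had a negative difference, against 3104 of all 6160 symbols. Responses were below 0 in HCC1937 and above 0 in MDA-MB-231 for 35, against 1460 of the 6160. The median response was -0.35 in HCC1937 and 0.17 in MDA-MB-231. With the trend removed the medians were -0.24 in HCC1937, 0.18 in MDA-MB-231 and -0.44 for the difference. RRS1, which takes part in 60S subunit assembly, was at 4.74 RPKM with siLARP7 and 8.96 RPKM with siNC in HCC1937, and 10.1 RPKM with siLARP7 and 6.39 RPKM with siNC in MDA-MB-231, moving down in HCC1937 and up in MDA-MB-231 (difference -1.29). LTV1, a 40S assembly factor, was at 4.17 RPKM with siLARP7 and 12.1 RPKM with siNC in HCC1937, and 12.05 RPKM with siLARP7 and 11.6 RPKM with siNC in MDA-MB-231 (difference -1.31). The box C/D snoRNP protein NOP58 was at 6.46 RPKM with siLARP7 and 15.3 RPKM with siNC in HCC1937, and 17.1 RPKM with siLARP7 and 15.9 RPKM with siNC in MDA-MB-231 (difference -1.14). DNTTIP2, RSL1D1 and MRTO4 made up the 6 members past the limit, with differences of -1.19, -1.10 and -1.07. Among all 6160 symbols 80 had a difference of at most -1.

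Other members of that list went the same way by less. The methyltransferase fibrillarin, FBL, had responses of 0.12 in HCC1937 and 0.63 in MDA-MB-231, nucleolin (NCL) of -0.28 in HCC1937 and 0.30 in MDA-MB-231 and the nucleolar chaperone NPM1 of -0.18 in HCC1937 and 0.12 in MDA-MB-231. DKC1, the pseudouridine synthase of H/ACA particles, had a difference of -0.93. The ribosomal protein genes themselves did not share this: the 78 cytosolic members had medians of 0.16 in HCC1937 and 0.01 in MDA-MB-231, and 0 passed the limit either way. Their median difference of 0.14 turned to -0.04 with the trend removed.

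Aminoacyl-tRNA synthetases, which charge tRNAs with amino acids, had a median response of -0.32 in HCC1937 and -0.02 in MDA-MB-231 over 20 members. RARS, the arginine enzyme, was at 6.46 RPKM with siLARP7 and 20.1 RPKM with siNC in HCC1937, and 18.7 RPKM with siLARP7 and 18.8 RPKM with siNC in MDA-MB-231, and its difference of -1.40 (-1.51 to -1.30) was the 1 in the list past the limit. EPRS, which joins glutamate and proline enzymes, had responses of -0.81 in HCC1937 and -0.18 in MDA-MB-231, and the leucine enzyme LARS of -0.63 in HCC1937 and 0.014 in MDA-MB-231, each short of the difference limit. The methionine enzyme MARS lay the other way with a difference of 0.30.

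Several other genes were lower in HCC1937 alone. FADD, the adaptor that links death receptors to caspase 8, was at 6.01 RPKM with siLARP7 and 16.3 RPKM with siNC in HCC1937, and 36.2 RPKM with siLARP7 and 29.6 RPKM with siNC in MDA-MB-231 (difference -1.50). MRFAP1L1, a MORF4-family associated protein, was at 5.15 RPKM with siLARP7 and 14.99 RPKM with siNC in HCC1937, and 24.1 RPKM with siLARP7 and 19.9 RPKM with siNC in MDA-MB-231 (difference -1.56). ZNF146, a zinc finger protein, was at 10.1 RPKM with siLARP7 and 26.3 RPKM with siNC in HCC1937, and 19.1 RPKM with siLARP7 and 16.8 RPKM with siNC in MDA-MB-231 (difference -1.39), and TRMT10C, a subunit of mitochondrial RNase P that trims mitochondrial tRNAs, at 2.03 RPKM with siLARP7 and 6.84 RPKM with siNC in HCC1937, and 15.1 RPKM with siLARP7 and 14.4 RPKM with siNC in MDA-MB-231 (difference -1.35). In each of these 4 genes the HCC1937 library with siLARP7 held less than its control, and the response in MDA-MB-231 missed the limit of 0.5.

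FAM166A, ANGPTL4 and TAF15 reached a negative difference with a higher response in MDA-MB-231. FAM166A was at 9.07 RPKM with siLARP7 and 16.3 RPKM with siNC in HCC1937, and 26.1 RPKM with siLARP7 and 13.5 RPKM with siNC in MDA-MB-231 (difference -1.60). ANGPTL4, a secreted inhibitor of lipoprotein lipase, was at 42.9 RPKM with siLARP7 and 67.6 RPKM with siNC in HCC1937, and 20.6 RPKM with siLARP7 and 10.8 RPKM with siNC in MDA-MB-231 (difference -1.43). TAF15, an RNA-binding protein of the FET family that is listed more than once in the tables, was at 16.2 RPKM with siLARP7 and 23.03 RPKM with siNC in HCC1937, and 39.7 RPKM with siLARP7 and 20.04 RPKM with siNC in MDA-MB-231 in the entry used here (difference -1.36). The metallothionein MT1E, a metal-binding protein with close relatives that can share reads, was at 13.4 RPKM with siLARP7 and 20.2 RPKM with siNC in HCC1937, and 169 RPKM with siLARP7 and 109 RPKM with siNC in MDA-MB-231, and all 3 metallothionein members were below 0 in HCC1937 and above 0 in MDA-MB-231.

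Genes of CDK1 and the G2/M phases were low in HCC1937, while the B-type cyclins were lower in MDA-MB-231 than in HCC1937. The 34 members had a median response of -0.36 in HCC1937 and -0.09 in MDA-MB-231, and 13 were lower by the response rule in HCC1937 and 6 in MDA-MB-231, against 9.06% of all entries in HCC1937 and 5.64% in MDA-MB-231. MKI67, the proliferation marker, was at 11.1 RPKM with siLARP7 and 24.96 RPKM with siNC in HCC1937, and 22.5 RPKM with siLARP7 and 29.9 RPKM with siNC in MDA-MB-231, and the kinesin KIF11 at 2.48 RPKM with siLARP7 and 6.22 RPKM with siNC in HCC1937, and 17.8 RPKM with siLARP7 and 19.4 RPKM with siNC in MDA-MB-231. Their responses were mainly in HCC1937, and 25 of 34 members had a negative difference, against 3104 of all 6160 symbols. The mitotic cyclins did the reverse. CCNB2, a cyclin of CDK1, was at 36.1 RPKM with siLARP7 and 49.1 RPKM with siNC in HCC1937, and 7.202 RPKM with siLARP7 and 20.3 RPKM with siNC in MDA-MB-231 and was the 1 member with a difference past the limit (1.02, 0.92 to 1.13). CCNB1 had responses of -0.29 in HCC1937 and -0.95 in MDA-MB-231, and the mitotic kinase PLK1 of -0.035 in HCC1937 and -0.93 in MDA-MB-231. ECT2, which sets up the cleavage furrow, was lower in both lines, at 14.9 RPKM with siLARP7 and 32.01 RPKM with siNC in HCC1937, and 11.5 RPKM with siLARP7 and 17.1 RPKM with siNC in MDA-MB-231.

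Of 12 cohesin and condensin members, 11 had a negative difference (median -0.29), against 3104 of all 6160 symbols. The condensin subunit NCAPG passed the limit at 4.46 RPKM with siLARP7 and 11.4 RPKM with siNC in HCC1937, and 19.7 RPKM with siLARP7 and 20.5 RPKM with siNC in MDA-MB-231 (difference -1.04). The 27 members for DNA replication and G1/S had medians of -0.03 in HCC1937 and 0.06 in MDA-MB-231, with 0 past the difference limit.

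RNAs of the mitochondrial genome leaned down with siLARP7 in HCC1937 and up in MDA-MB-231. Of 36 genes 13 were lower by the response rule in HCC1937, against 9.06% of all entries, and 14 were higher in MDA-MB-231, against 2.92%, while 4 were above 0 in HCC1937. All 13 mRNAs were below 0 in HCC1937 and above 0 in MDA-MB-231, against 1460 of all 6160 symbols. Of them 2 were past the response limit in HCC1937 and 5 in MDA-MB-231. The medians were -0.40 in HCC1937, 0.40 in MDA-MB-231 and -0.81 for the difference. With the trend over GC content, length and level removed the mRNA medians were -0.47 in HCC1937, 0.03 in MDA-MB-231 and -0.46 for the difference. MT-CO3, a cytochrome oxidase subunit, was at 437 RPKM with siLARP7 and 729.9 RPKM with siNC in HCC1937, and 9387 RPKM with siLARP7 and 7151 RPKM with siNC in MDA-MB-231 (difference -1.05). MT-ND5, a subunit of complex I, was at 211 RPKM with siLARP7 and 314 RPKM with siNC in HCC1937, and 2373 RPKM with siLARP7 and 1599.8 RPKM with siNC in MDA-MB-231 (difference -1.06). MT-ND6, the 1 mRNA encoded on the light strand, was at 372 RPKM with siLARP7 and 495 RPKM with siNC in HCC1937, and 3546 RPKM with siLARP7 and 2104 RPKM with siNC in MDA-MB-231 (difference -1.08). The levels of these 3 genes were lower in both HCC1937 libraries than in either MDA-MB-231 library.

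Mitochondrial tRNA genes of the light strand went further the same way, a split made after the values were seen. The 8 light-strand tRNAs had a median difference of -2.07, and the 13 heavy-strand tRNAs one of -0.61. MT-TE, the tRNA for glutamate, was at 46.95 RPKM with siLARP7 and 336 RPKM with siNC in HCC1937, and 2011 RPKM with siLARP7 and 1128 RPKM with siNC in MDA-MB-231. Its difference of -3.56 (-3.80 to -3.32) was the lowest of all members. MT-TY, the tRNA for tyrosine, was at 369.9 RPKM with siLARP7 and 1183 RPKM with siNC in HCC1937, and 13427 RPKM with siLARP7 and 8300.5 RPKM with siNC in MDA-MB-231, and MT-TA, the tRNA for alanine, at 333 RPKM with siLARP7 and 1192 RPKM with siNC in HCC1937, and 11694 RPKM with siLARP7 and 8294 RPKM with siNC in MDA-MB-231. MT-TN, the tRNA for asparagine, moved most in MDA-MB-231, at 86.1 RPKM with siLARP7 and 146 RPKM with siNC in HCC1937, and 2939.9 RPKM with siLARP7 and 1011 RPKM with siNC in MDA-MB-231. Whether strand was used in counting is not known from the labels, so reads of a light-strand gene and of the heavy-strand transcript across it cannot be told apart.

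**Figure D3:**
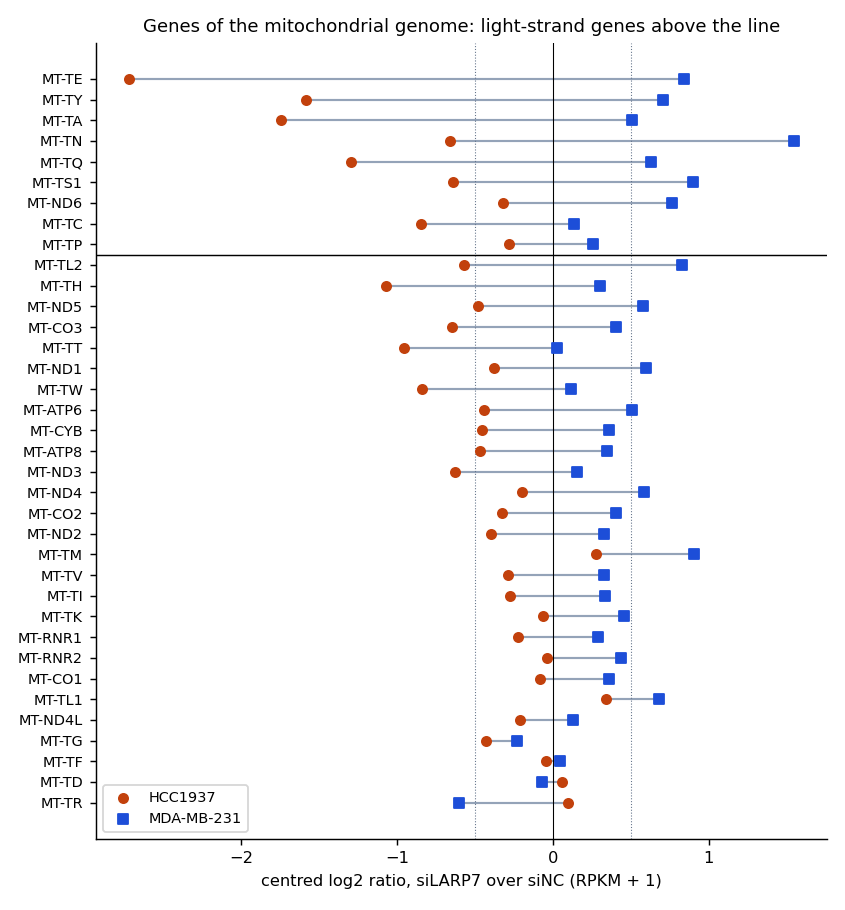
Response to siLARP7 of 36 genes of the mitochondrial genome as centred log2 ratios on RPKM + 1, with circles for HCC1937, squares for MDA-MB-231 and light-strand genes above the horizontal line. In 31 of 36 genes the circle is below 0 and the square above it, and MT-TE lies furthest apart (-2.72 in HCC1937 and 0.84 in MDA-MB-231).

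Nuclear genes for the respiratory chain lay the other way from the mitochondrial ones. Of 68 members 54 had a positive difference, against 3056 of all 6160 symbols. The medians were 0.12 in HCC1937, -0.15 in MDA-MB-231 and 0.20 for the difference. These were 0.06 in HCC1937, -0.06 in MDA-MB-231 and 0.10 for the difference with the trend removed. NDUFB1, an accessory subunit of complex I, was the 1 past the limit, with 27.3 RPKM with siLARP7 against 20.1 RPKM with siNC in HCC1937 and 8.19 RPKM with siLARP7 against 12.9 RPKM with siNC in MDA-MB-231 (difference 1.10).

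Among entries that are not protein-coding, AL592188.7, which the annotation used here does not hold, had the highest positive difference of all, 3.46, at 3106 RPKM with siLARP7 and 981 RPKM with siNC in HCC1937, and 242 RPKM with siLARP7 and 795 RPKM with siNC in MDA-MB-231. AC068580.1, annotated as lying inside an intron, was at 18.7 RPKM with siLARP7 and 9.18 RPKM with siNC in HCC1937, and 12.2 RPKM with siLARP7 and 41.2 RPKM with siNC in MDA-MB-231 (difference 2.71). MIR147B, a microRNA gene whose reads cannot be told apart from those of an overlapping host transcript, was at 404 RPKM with siLARP7 and 341 RPKM with siNC in HCC1937, and 80.9 RPKM with siLARP7 and 304 RPKM with siNC in MDA-MB-231 (difference 2.23). On the other side MIR4321 was at 3.21 RPKM with siLARP7 and 5.32 RPKM with siNC in HCC1937, and 34.9 RPKM with siLARP7 and 8.32 RPKM with siNC in MDA-MB-231, with a difference of -2.45 and a wide interval (-3.39 to -1.52), since a gene this short holds few reads. RN7SL1 and RN7SL2, the RNA of the signal recognition particle in near-identical copies and named here after their values were seen, had differences of 1.89 and 1.88, at 1504 RPKM with siLARP7 and 853 RPKM with siNC in HCC1937, and 120.4 RPKM with siLARP7 and 239 RPKM with siNC in MDA-MB-231 for RN7SL2. How fully such RNA was captured is not known, since poly(A) selection is not stated.

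Some genes responded the same way in both lines. Of 5195 protein-coding symbols, 33 were lower in both lines and 12 were higher in both. By line, 512 were lower in HCC1937 and 247 in MDA-MB-231, and 250 were higher in HCC1937 and 88 in MDA-MB-231. Whether the shared counts exceed what these separate counts would give was not tested. LARP7 itself is among the 33, which checks the depletion and is no further finding. After UFL1, which ranked first by the smaller of its responses, the order ran HSPA13, SNAPC1, ATP13A3, LARP7, TOR1B, SLC38A2 and NEK7 in the rule for named genes.

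UFL1, the ligase that attaches the ubiquitin-like UFM1, was at 2.29 RPKM with siLARP7 and 5.41 RPKM with siNC in HCC1937, and 3.35 RPKM with siLARP7 and 6.44 RPKM with siNC in MDA-MB-231. HSPA13, an HSP70 relative of the endoplasmic reticulum, was at 8.36 RPKM with siLARP7 and 15.8 RPKM with siNC in HCC1937, and 10.9 RPKM with siLARP7 and 27.9 RPKM with siNC in MDA-MB-231. SNAPC1 is a subunit of the complex that starts transcription of small nuclear RNA genes, 7SK among them, and was at 6.91 RPKM with siLARP7 and 13.1 RPKM with siNC in HCC1937, and 17.8 RPKM with siLARP7 and 31.1 RPKM with siNC in MDA-MB-231. The responses of these genes were -0.87 in HCC1937 and -0.76 in MDA-MB-231, -0.75 in HCC1937 and -1.28 in MDA-MB-231 and -0.74 in HCC1937 and -0.76 in MDA-MB-231. ATP13A3, a polyamine transporter, was at 26.6 RPKM with siLARP7 and 52.4 RPKM with siNC in HCC1937, and 11.4 RPKM with siLARP7 and 19.3 RPKM with siNC in MDA-MB-231, and SLC38A2, a glutamine carrier, at 12.1 RPKM with siLARP7 and 29.2 RPKM with siNC in HCC1937, and 30.4 RPKM with siLARP7 and 48.7 RPKM with siNC in MDA-MB-231. NEK7, a kinase that also licenses the NLRP3 inflammasome, was at 7.75 RPKM with siLARP7 and 13.6 RPKM with siNC in HCC1937, and 6.44 RPKM with siLARP7 and 11.7 RPKM with siNC in MDA-MB-231, and TOR1B, a torsin ATPase, at 6.62 RPKM with siLARP7 and 12.4 RPKM with siNC in HCC1937, and 20.6 RPKM with siLARP7 and 33.5 RPKM with siNC in MDA-MB-231. In all 8 genes both siLARP7 libraries were below their own controls, as the rule that chose them requires. With the minimum of 5 RPKM set on the mean of siLARP7 and siNC instead, UFL1 and LARP7 did not enter.

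Further genes lower in both lines were the integrin subunit ITGA2, with 5.27 RPKM with siLARP7 against 13.4 RPKM with siNC in HCC1937 and 11.5 RPKM with siLARP7 against 17.4 RPKM with siNC in MDA-MB-231, the receptor kinase TGFBR1, with responses of -0.55 in HCC1937 and -0.73 in MDA-MB-231, and SEL1L and ECT2, named above. They are the other list members by which the shared rule was met on the lower side.

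Genes higher in both lines included CAMK2N2 and CAMK2N1, inhibitors of the kinase CaMKII. CAMK2N2 was at 21.6 RPKM with siLARP7 and 11.9 RPKM with siNC in HCC1937, and 13.6 RPKM with siLARP7 and 7.89 RPKM with siNC in MDA-MB-231, and CAMK2N1 at 20.5 RPKM with siLARP7 and 13.7 RPKM with siNC in HCC1937, and 9.89 RPKM with siLARP7 and 6.04 RPKM with siNC in MDA-MB-231. HSPA1A and HSPA1B, the stress-induced HSP70 genes, are near-identical copies whose reads can be split between them. HSPA1B was at 83.2 RPKM with siLARP7 and 45.7 RPKM with siNC in HCC1937, and 35.8 RPKM with siLARP7 and 23 RPKM with siNC in MDA-MB-231, and HSPA1A had responses of 0.83 in HCC1937 and 0.56 in MDA-MB-231. Of the 19 heat shock chaperone members these were the members higher in both lines, while HSPB1 had responses of 0.86 in HCC1937 and -0.017 in MDA-MB-231 and HSPD1 of -0.53 in HCC1937 and -0.042 in MDA-MB-231.

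CEBPD, a transcription factor of the acute-phase response, was at 36.5 RPKM with siLARP7 and 23.7 RPKM with siNC in HCC1937, and 28.3 RPKM with siLARP7 and 18.7 RPKM with siNC in MDA-MB-231, and ZFP36 at 20.99 RPKM with siLARP7 and 15.5 RPKM with siNC in HCC1937, and 11.8 RPKM with siLARP7 and 7.28 RPKM with siNC in MDA-MB-231. C4orf48, PRR7 and LRP3 had responses of 0.69 in HCC1937 and 0.68 in MDA-MB-231, 0.61 in HCC1937 and 0.69 in MDA-MB-231 and 0.58 in HCC1937 and 0.56 in MDA-MB-231. LRP3 belongs to the lipoprotein receptor family and PRR7 is a transmembrane adaptor. Each of these genes was above its control in both lines, as the rule that chose them requires.

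The particle that LARP7 belongs to did not move as a unit. 7SK RNA itself, RN7SK, was at 5.25 RPKM with siLARP7 and 6.61 RPKM with siNC in HCC1937, and 8.16 RPKM with siLARP7 and 13.5 RPKM with siNC in MDA-MB-231. Its responses were -0.19 in HCC1937 (counting interval -0.54 to 0.15) and -0.66 in MDA-MB-231, with a counting interval of the difference of 0.021 to 0.90. The authors' log2 change was 0 in HCC1937 and -0.37 in MDA-MB-231. How fully 7SK was captured is not known, since poly(A) selection is not stated. MEPCE, which caps 7SK, was at 11.2 RPKM with siLARP7 and 16 RPKM with siNC in HCC1937, and 10.5 RPKM with siLARP7 and 7.42 RPKM with siNC in MDA-MB-231 (difference -0.86), and HEXIM1, the P-TEFb inhibitor, at 12.8 RPKM with siLARP7 and 16.3 RPKM with siNC in HCC1937, and 32.4 RPKM with siLARP7 and 26.7 RPKM with siNC in MDA-MB-231 (difference -0.52). CDK9, the kinase of P-TEFb, had responses of -0.041 in HCC1937 and 0.12 in MDA-MB-231. Of 7 members 0 passed the difference limit and 1, LARP7, was lower in both. Over 11 members of the super elongation and pausing list the medians were -0.01 in HCC1937 and 0.01 in MDA-MB-231.

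Of other La proteins, SSB, the La protein itself, had responses of -0.40 in HCC1937 and -0.013 in MDA-MB-231, LARP4 of -0.85 in HCC1937 and -0.22 in MDA-MB-231, LARP4B of -0.61 in HCC1937 and 0.028 in MDA-MB-231 and LARP6 of 0.35 in HCC1937 and -0.081 in MDA-MB-231. BRCA1 is not a member, since its HCC1937 control was under the limit. It was at 0.785 RPKM with siLARP7 and 3.29 RPKM with siNC in HCC1937, and 5.08 RPKM with siLARP7 and 4.91 RPKM with siNC in MDA-MB-231, for a difference of -1.22 (-1.33 to -1.11) on the same scale. For the 4 homologous recombination members the median was -0.34 in HCC1937 and 0.01 in MDA-MB-231, with 0 past the limit, and with the trend removed it turned to 0.08 in HCC1937 and was 0.13 in MDA-MB-231.

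**Figure D4:**
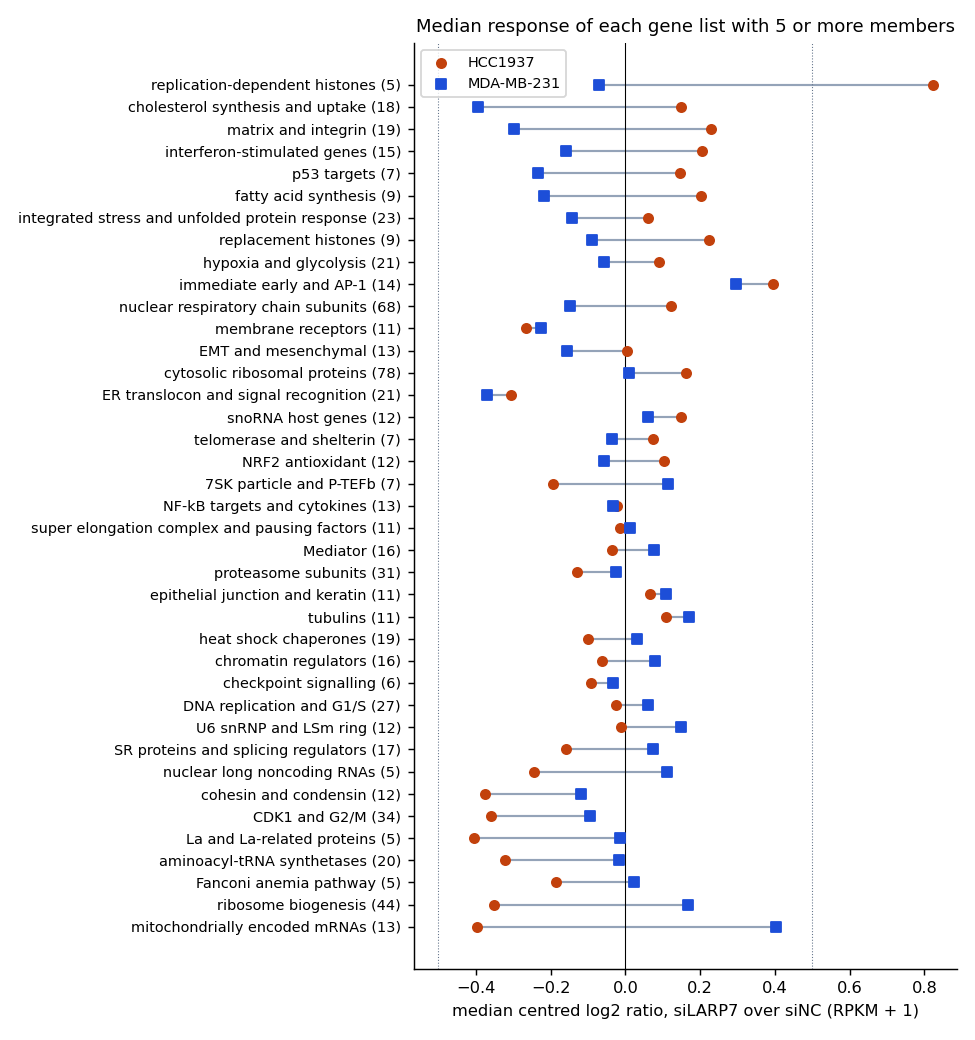
Median response of each gene list with 5 or more members, as centred log2 ratios on RPKM + 1, with circles for HCC1937, squares for MDA-MB-231 and the number of members in brackets. Lists are ordered by the median response difference, from replication-dependent histones (median 0.82 in HCC1937 and -0.07 in MDA-MB-231) down to mitochondrially encoded mRNAs (-0.40 in HCC1937 and 0.40 in MDA-MB-231).

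Other lists had few or no members past the difference limit. Genes for matrix and integrins had a median difference of 0.47, and 0.51 with the trend removed, with 0 past the limit. Of 19 members 17 were positive, against 3056 of all 6160 symbols. Responses were above 0 in HCC1937 and below 0 in MDA-MB-231 for 12 of 19, against 1403 of the 6160. The cholesterol list, with 11 of 18, leaned alike. PLAU, the urokinase protease, had responses of 0.23 in HCC1937 and -0.68 in MDA-MB-231, the protease MMP14 of 0.49 in HCC1937 and -0.43 in MDA-MB-231 and the integrin subunit ITGAV of -0.14 in HCC1937 and -1.04 in MDA-MB-231. Interferon-stimulated genes had a median difference of 0.37 over 15 members with 0 past the limit, for example 0.19 in HCC1937 and -0.18 in MDA-MB-231 for B2M, the light chain of class I molecules. Of 11 epithelial junction and keratin members 2, CLDN4 and KRT81, passed the limit, against 1.87% of all entries. Their responses were 0.52 in HCC1937 and -0.49 in MDA-MB-231 for CLDN4, and 0.067 in HCC1937 and -0.97 in MDA-MB-231 for KRT81. DDR1, a collagen receptor, passed the limit at 1.00 (0.60 in HCC1937 and -0.41 in MDA-MB-231), and TUG1, a nuclear long noncoding RNA, on the other side (-0.98 in HCC1937 and 0.11 in MDA-MB-231).

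Proteasome, Mediator, SR protein, tubulin and chromatin regulator genes had median differences between -0.14 and -0.08, with 0 members past the limit. Of the 31 proteasome members 10 had a positive difference, against 3056 of all 6160 symbols. The 16 Mediator members had medians of -0.04 in HCC1937 and 0.08 in MDA-MB-231.

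Responses followed the base composition of transcripts in each line. Over 5195 protein-coding symbols the Spearman correlation of the response with transcript GC content was 0.59 in HCC1937 and 0.39 in MDA-MB-231, and that of the response difference was 0.25. Among the 520 genes with the lowest GC content (31.3 to 39.3%) the median response was -0.35 in HCC1937 and -0.24 in MDA-MB-231, and among the 520 with the highest (62.7 to 74.5%) it was 0.33 in HCC1937 and 0.12 in MDA-MB-231. Of the 33 genes lower in both lines 26 lie in that lowest bin, and of the 12 higher in both 8 lie in the highest bin. Median GC content was 58.0% for the 60 genes with a difference of at least 1 and 44.8% for the 48 with one of at most -1, against 51.1% for all. The part of this trend in the calls was not tested, and values with it removed follow.

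**Figure D5:**
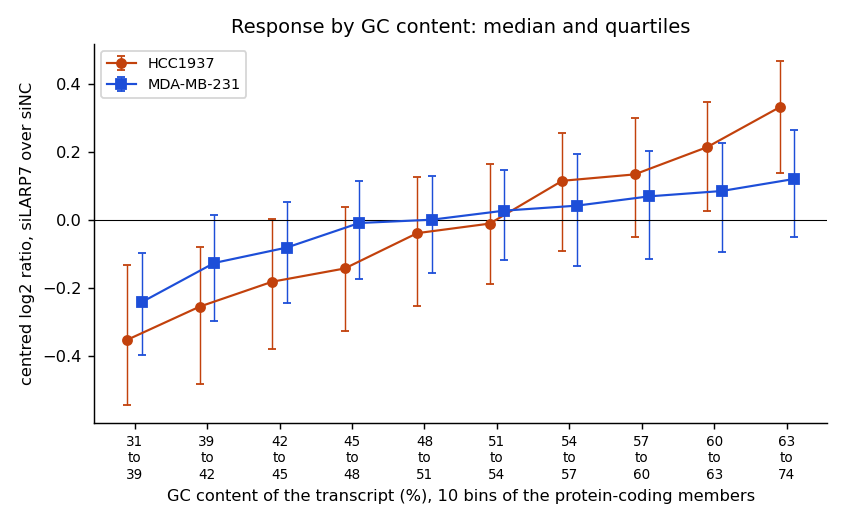
Median response to siLARP7 (centred log2 ratio on RPKM + 1) by transcript GC content, in 10 bins of 519 or 520 protein-coding genes, with circles for HCC1937 and squares for MDA-MB-231. Bars span the lower to the upper quartile of genes, and the medians are -0.35 in HCC1937 and -0.24 in MDA-MB-231 in the lowest bin, and 0.33 in HCC1937 and 0.12 in MDA-MB-231 in the highest.

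Once a fitted trend over transcript GC, length and expression level was taken out, 29 of the 60 and 23 of the 48 genes kept a response difference past the limit. Of the shared genes 3 of 12 and 1 of 33 kept responses of 0.5 in both lines, while 12 of 12 and 32 of 33 kept their sign in both. INSIG1 (1.72), MSMO1 (1.41), SQLE (1.18) and HMGCS1 (1.08) kept a difference of at least 1, as did SEMA6B (1.84), HPCA (1.76), SEC61G (1.46) and CCNB2 (1.02). RARS (-1.30), FADD (-1.54), LTV1 (-1.11) and RRS1 (-1.18) kept one of at most -1. The values of MT-CO3 (-0.48), JUND (0.69), H3F3B (0.90) and NCAPG (-0.86) no longer reached the limit, nor did MRTO4 (-0.96), DNTTIP2 (-0.95) and RSL1D1 (-0.92). The sterol list kept medians of 0.10 in HCC1937 and -0.39 in MDA-MB-231, while the median difference of the cohesin and condensin list was -0.17 and that of the immediate early list 0.10. In HCC1937 the median of the integrated stress list turned to -0.05, that of the DNA replication list to 0.02 and that of Mediator to 0.01, and in MDA-MB-231 the median of the G2/M list turned to 0.02 and that of the elongation list to -0.06.

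Counting error was small beside most of these differences. All 60 and all 48 intervals left out 0, but these genes were chosen by the size of this same difference. That count is therefore no separate support for them. Of the intervals 28 of 60 and 26 of 48 lay wholly past the limit of 1 in size. Wider intervals belonged to short RNAs and low genes, such as MT-TQ at -2.88 to -0.96.

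The MEF table offered a readout that neither line entered, matched by symbol for 3853 protein-coding genes at 5 RPKM or more in wild-type cells. Of genes lower with siLARP7 in HCC1937, 262 of 374 (70.1%) were below the median response of LARP7-/- MEFs, against 83 of 177 (46.9%) of those lower in MDA-MB-231 and 49.99% of all. Genes higher in HCC1937 were below it in 52 of 163 cases (31.9%), and those higher in MDA-MB-231 in 26 of 56 (46.4%). Cholesterol genes were below 0 in the knockout, as in MDA-MB-231, with a median of -0.43 over 15 genes: INSIG1 was at 21.1 RPKM in LARP7-/- and 35.9 RPKM in wild-type MEFs, and MSMO1 at 13.6 RPKM in LARP7-/- and 18.3 RPKM in wild-type MEFs. The 12 mitochondrial mRNAs with a MEF value had a median of 0.28, on the side of MDA-MB-231, and the 43 ribosome biogenesis genes one of -0.31, on the side of HCC1937. Other lists had larger MEF medians. They were -1.06 for 30 G2/M genes, -0.70 for 10 cohesin and condensin genes and -0.62 for 22 DNA replication genes. For 6 interferon-stimulated genes the median was 1.52, and for 8 NF-kB and cytokine genes 0.71. The part of these lists in the shares above was not tested. Transcript GC content was not removed from the MEF values.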

How the data were processed

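RNA was sequenced in 1 library per group, after library preparation with an Illumina kit per the labels' protocols, which do not say whether poly(A) RNA was selected. The submitters' processing notes name cutadapt, FastQC, STAR and the build GRCh37 without versions. Per the file headers, the deposited tables hold an RPKM for every gene in each library, and all values here start from these. They also hold the authors' log2 change from GFOLD (setting 0.01 in the header), which served as an alternative.

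Tables were joined on gene ID with Python 3.11.15, pandas 2.3.3 and numpy 2.4.6. Gene types, transcript GC content and lengths came from GENCODE release 29, with 5929 entries matched by ID, 807 by symbol and 175 not matched. Counts per protein-coding gene and list use 1 entry per symbol. Depth was recovered from single-exon genes under 50 reads, of which 89.0 to 90.2% gave whole reads within 0.01, and 1 read in 1 kb is worth 0.0187 to 0.0203 RPKM. Counting intervals rest on approximate reads from exon lengths, and PCR copies are not independent molecules. The trend was a polynomial of degree 3 on GC content, length and level over protein-coding entries. Steps were tested on simulated data.

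The members, the 40 gene lists and the size rules were chosen with earlier results of these data known, and the ribosome biogenesis list and the mitochondrial strand groups after these values were seen. Genes were named by rule: the 10 highest and lowest response differences among protein-coding genes and 3 among others, 8 shared genes in each direction, LARP7, RN7SK and BRCA1, list members past a size rule, and up to 4 further members per list. Further list members, RN7SL1 and RN7SL2 were added as examples after their values were seen. Values of some list members are not reported here, though counts and medians include them. With 1 library per group no test was made.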

Additional observations from a re-analysis of the deposited data

Results flagged for a closer look

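The lines moved in opposite directions for 60 entries, each by a response of 0.5 or more in size, and this difference was not tested. Of them 44 were higher with siLARP7 in HCC1937 and lower in MDA-MB-231, among them the sterol genes INSIG1 and MSMO1 and the genes SEMA6B, HPCA, BAMBI and SDF2L1. The other 16 were lower with siLARP7 in HCC1937 and higher in MDA-MB-231, and 7 of these are mitochondrial tRNA genes, with FAM166A, ANGPTL4, RRS1, NPIPA7 and CAPN12 as the protein-coding ones. Reads of NPIPA7 are shared with near-identical copies, so its value is uncertain.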

How the results depend on the processing

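No paired analysis was possible because each group held 1 library. The counts of entries, which were 129 with a higher and 83 with a lower response in HCC1937, 26 higher in both and 44 lower in both, moved with some choices. A pseudocount of 0.1 gave 152 lower in HCC1937, and no centring gave 126. At a level minimum of 1 RPKM the counts were 275, 182, 62 and 73 in the order above, by its wider choice of genes. Without the trend over GC, length and level, over 5845 protein-coding entries, they were 42, 28, 11 and 2. Protein-coding entries alone, an alternative added after the data were seen, gave 70, 51 and 17 for the first 3. The authors' deposited log2 change gave 44 higher and 91 lower in HCC1937 and 7 higher in both, so that 32.6% of the differences past the limit were higher in HCC1937, against 60.8% in the values reported. Causes were not tested. A level minimum on the pair mean, a trimmed mean and 1 entry per symbol kept all 4 counts within 1.5 times. None of the recomputed gene differences of 1 or more in size changed sign under these alternatives. These genes were chosen by the size of this same difference, so this is no separate support for them. Several of the alternatives shift every gene difference alike or leave it the same, and could hardly turn one of this size. Of the smaller gene differences 8, all of shared genes and of at most 0.169 in size, changed sign in at least 1 alternative, such as UFL1 (0.16), CEBPD (-0.16) and C4orf48 (-0.34) with the trend removed. Of the gene differences and 5 list medians recomputed, 23 of 41 moved by more than their counting error (0.1 for list medians) with the trend removed and 18 of 48 with the authors' change. Of the 48, 41 have a value with the trend removed or among protein-coding entries and 44 under the pair-mean minimum, since the others did not enter. Depth limits short RNAs most.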
